A study of Mus musculus with 18 samples.

Results

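Dscam, Ncam2, Jam2, Cxadr and Tiam1 are cell adhesion and neurite genes that lie in the segment of mouse chromosome 16 duplicated in Dp16 mice, and Dscaml1, Ncam1, Jam3 and Tiam2 are paralogues of 4 of them that lie outside it. The 9 genes were taken by symbol from the deposited tables and make up 9 of 55385 genes measured. Polyadenylated RNA was sequenced from brain cortex of adult mice in 3 groups of 6 libraries, each with 3 males and 3 females. WT mice were C57BL/6J, labelled as 17.1 to 18 weeks old. Dp16 mice, of the same age range, carry 3 copies of the segment, which is used to model trisomy 21. Dp16_2xIFNRs mice, aged 17.7 to 18 weeks, keep the duplication but have the interferon receptor cluster inside it at the normal 2 copies. The 5 segment members are therefore at 3 copies in both duplication groups, a copy ratio to WT of 1.5, and the 4 paralogues are at 2 copies everywhere. No treatment is labelled.

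The proteins of these genes act at contacts between cells and in the growth of neurites. Dscam, Dscaml1, Ncam1 and Ncam2 are cell surface receptors of the immunoglobulin superfamily that bind their own kind on neighbouring membranes. Dscam is best known for keeping neurites of like neurons apart and also for responses to netrin, and Ncam proteins for axon growth and bundling. Jam2, Jam3 and Cxadr are immunoglobulin receptors of cell junctions, with Cxadr named as the entry receptor of coxsackieviruses and adenoviruses. Tiam1 and Tiam2 are exchange factors that load the small GTPase Rac with GTP and so act on the actin skeleton of growth cones and dendritic spines.

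The duplicated segment reaches from Lipi to Zbtb21 (positions 75540514 to 97962622 of chromosome 16 in build GRCm38), with all gene positions from GENCODE M21. Cxadr (78301489 to 78359774, plus strand) lies nearest its start, followed by Ncam2 (81200697 to 81626828, plus), Jam2 (84774123 to 84825928, plus), Tiam1 (89787111 to 90143769, minus) and Dscam (96590840 to 97170752, minus). Dscam spans 579.9 kb, Ncam2 426.1 kb and Tiam1 356.7 kb, whereas Cxadr and Jam2 span 58.3 and 51.8 kb. Dscaml1 (45426628 to 45753712, plus), Ncam1 (49502136 to 49798925, minus) and Jam3 (27097384 to 27155421, minus) lie on chromosome 9, and Tiam2 (3326573 to 3531344, plus) on chromosome 17.

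The promoters of the 2 homophilic receptors of the segment are shown because both genes rose in each duplication group. Each is the 250 bases before the RefSeq start on GRCm38.p6, written 5′ to 3′ on the strand of the gene, with capitals marking the GC box GGGCGG on either strand. The Dscam window is chr16:97170736-97170985 on the minus strand, and its last 17 bases fall inside the longer GENCODE model. The Ncam2 window is chr16:81200447-81200696 on the plus strand.
Dscam: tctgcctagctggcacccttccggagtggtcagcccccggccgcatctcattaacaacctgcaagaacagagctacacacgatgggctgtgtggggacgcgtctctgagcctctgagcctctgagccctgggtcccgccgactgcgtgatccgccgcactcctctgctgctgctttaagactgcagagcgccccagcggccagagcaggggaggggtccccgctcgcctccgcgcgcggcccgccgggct
Ncam2: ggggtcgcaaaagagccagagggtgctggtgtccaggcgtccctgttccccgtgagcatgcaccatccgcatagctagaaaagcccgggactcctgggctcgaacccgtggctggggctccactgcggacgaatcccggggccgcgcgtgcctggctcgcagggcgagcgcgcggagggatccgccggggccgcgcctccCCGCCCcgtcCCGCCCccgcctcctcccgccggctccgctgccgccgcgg
The Ncam2 window was 75.2% G and C with 32 CpG dinucleotides, and that of Dscam 68.0% with 21. Over the 32851 promoter windows of the table the medians were 52.4% and 6, and Ncam2 stood at the 96.2nd and Dscam at the 88.1st percentile for G and C content. The Ncam2 window held 2 GC boxes and the Dscam window none. Such a box stood in 32.7% of all windows. Neither window held the letters TATAAA (12.4% of windows), CCAAT (33.8%), CACGTG (6.02%) or TGACGTCA (1.55%), each searched on both strands. Windows were found for 4 of the 9 genes, the others being Tiam1 and Tiam2. The windows of Tiam1, which also rose, were 48.4% and 53.2% G and C. A relation between promoter content and the rises was not tested.

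Library totals ran from 46346019 to 67281449 counts, and single members had between 728 (Cxadr) and 19109 (Ncam1) counts in a library. All 9 members passed the filter on low counts, among 18717 genes tested. Calls rest on edgeR's quasi-likelihood F test and a Benjamini-Hochberg adjusted p under 0.05 over these genes, and the adjusted p-values of single genes are from this test. The labels list the libraries as numbered samples of their group, and p-values measure the spread between these samples. The receptor genes Ifnar1, Ifnar2, Ifngr2 and Il10rb, which check the genotype labels, were at 1.41 to 1.55 times WT in Dp16 and 0.966 to 1.05 times WT in Dp16_2xIFNRs. Markers of cortical neurons and glia were expressed throughout. No gene of 11 marker lists was called against WT by edgeR, and DESeq2 called Mobp and Gfap higher and Dcx lower in at least 1 comparison. The summed CPM (counts scaled to the library total) of every list overlapped between groups. For neurons the sums were 11100 to 12900 in WT, 10700 to 12200 in Dp16 and 10800 to 12000 in Dp16_2xIFNRs. For blood, whose 5 markers all lay above WT in both comparisons, they were 36.9 to 55.5, 33.1 to 85.9 and 37.5 to 105. Choroid plexus and ependyma markers reached 200 in a WT and 380 in a Dp16 library, against at most 30.4 in Dp16_2xIFNRs. Some glial lists leaned 1 way in Dp16_2xIFNRs. All 8 oligodendrocyte markers lay above WT there, and none of 7 microglia and 6 oligodendrocyte precursor markers did. In Dp16 the numbers above WT were 6, 2 and 4.

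All 5 segment members rose against WT in both duplication groups, by 1.33-fold to 1.74-fold, and none of the 4 paralogues was called in any comparison. Of all genes tested, 0.636% were called higher in Dp16 and 0.737% in Dp16_2xIFNRs, and 0.748% and 1.05% in either direction. Both comparisons use the same WT libraries. For the 106 other segment genes in the test, leaving out the receptors, the median fold was 1.46 in Dp16 and 1.48 in Dp16_2xIFNRs, and 59 and 58 were called, so that a call is common for a gene of the segment. In bulk tissue, fewer cells of a type and less RNA per cell cannot be told apart.

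**Figure D1:**
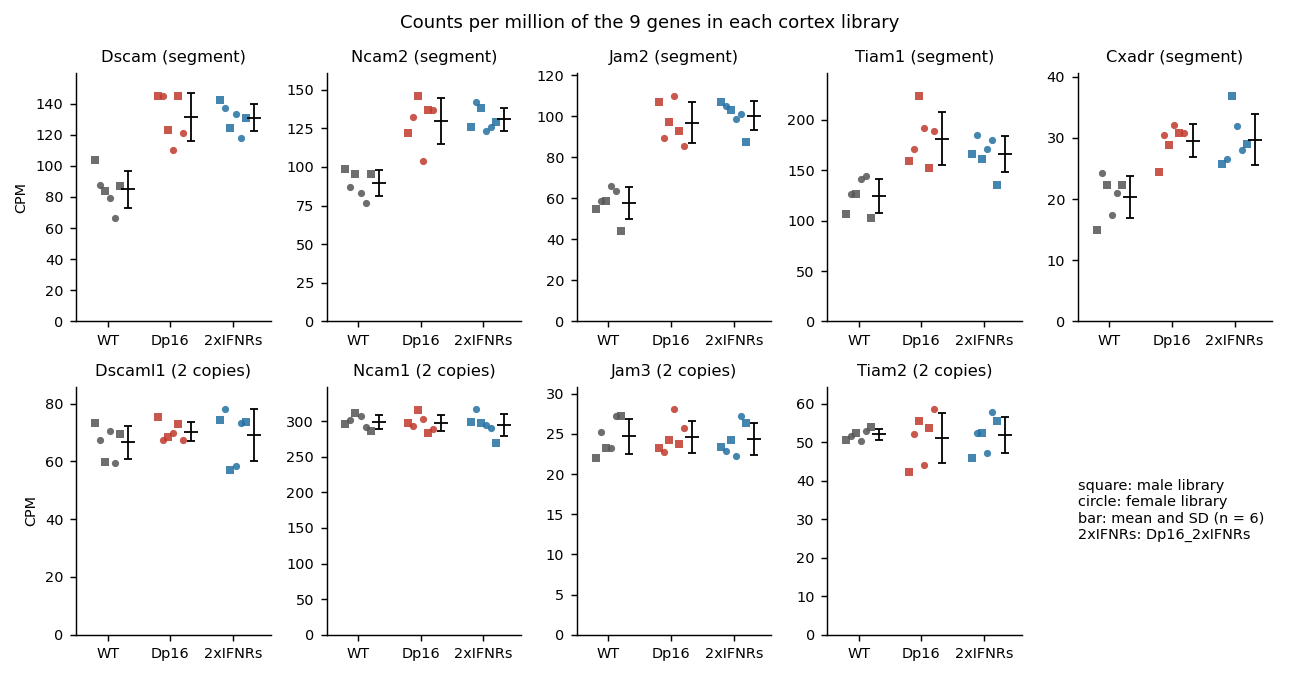
CPM of the 9 genes (y axis, from 0) in each library of WT, Dp16 and Dp16_2xIFNRs (x axis). Squares are male and circles female libraries, and the bars give mean and SD (n = 6). Both duplication groups lie wholly above WT for Dscam, Ncam2, Jam2 and Cxadr, as does Dp16 for Tiam1. The paralogues overlap in all 3 groups.

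Dscam was measured at 66.8 to 104 CPM in WT (median 85.6), 110 to 145 in Dp16 (median 134) and 118 to 142 in Dp16_2xIFNRs (median 132). Every duplication library lay above the highest WT library. The mean went from 84.8 ± 12 to 132 ± 15.5 and 131 ± 8.70 CPM (SD, n = 6). Its log2 fold change was 0.64 (SE 0.08, adjusted p = 6.96e-05) in Dp16 and 0.63 (SE 0.08, adjusted p = 7.99e-05) in Dp16_2xIFNRs, a 1.55-fold rise in each. The 95% intervals, 1.38 to 1.75 and 1.38 to 1.74, hold the copy ratio of 1.5.

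Ncam2, which is known in axons of the olfactory system and in cortical neurons, ranged from 76.8 to 98.6 CPM in WT (median 91.2). It ranged from 104 to 146 in Dp16 (median 134) and from 123 to 142 in Dp16_2xIFNRs (median 128), again without overlap with WT. The rise was 1.45-fold in Dp16 (95% interval 1.32 to 1.60, adjusted p = 3.76e-05) and 1.47-fold in Dp16_2xIFNRs (1.33 to 1.61, adjusted p = 2.95e-05). The nearest libraries of the 2 genotypes were the lowest of Dp16, at 104 CPM, and the highest of WT, at 98.6 CPM.

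Jam2, which pairs with Jam3 at contacts of endothelial and other cells, had the largest fold of the 5. It lay between 44.3 and 65.9 CPM in WT (median 58.8), 85.3 and 110 in Dp16 (median 95), and 87.3 and 107 in Dp16_2xIFNRs (median 102). The lowest duplication library, at 85.3 CPM, stood well above the highest of WT. The rise was 1.68-fold in Dp16 (95% interval 1.5 to 1.89, adjusted p = 9.07e-06) and 1.74-fold in Dp16_2xIFNRs (1.55 to 1.96, adjusted p = 3.7e-06). The Dp16 interval just held the copy ratio of 1.5 (log2 lower bound 0.583 against 0.585), whereas that of Dp16_2xIFNRs lay above it. Over both duplication groups it was 1.71-fold (1.54 to 1.90, adjusted p = 8.29e-07), an interval above the copy ratio. That held for 3 of the 106 other segment genes (2.83%), namely A730009L09Rik, Mx1 and Ripk4, which were named after their values were seen and had WT means of 0.162, 0.186 and 0.351 CPM. Without WT replicate 6, the lowest WT library, the joint rise was 1.64-fold (1.49 to 1.79) and the interval held 1.5. That library also had the lowest sum of astrocyte markers, 5820 CPM, and in each duplication group the library with the lowest Jam2 value had the lowest sum as well (6660 and 6590 CPM). Astrocyte sums overlapped between the groups, with highest values of 8920, 8840 and 8720 CPM, and their part in the Jam2 result was not tested.

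Cxadr, the least abundant member per length, ranged from 14.9 to 24.2 CPM in WT (median 21.6), 24.4 to 32.2 in Dp16 (median 30.6) and 25.7 to 36.9 in Dp16_2xIFNRs (median 28.5). Neither duplication group overlapped WT, but the highest WT and lowest Dp16 libraries nearly met. The rise was 1.45-fold in Dp16 (95% interval 1.24 to 1.70, adjusted p = 0.0197) and 1.46-fold in Dp16_2xIFNRs (1.24 to 1.71, adjusted p = 0.0162). Its call in Dp16 ended without WT replicate 4 (log2 fold change 0.49, adjusted p = 0.0558), Dp16 replicate 4 (0.52, 0.0625) or Dp16 replicate 5 (0.52, 0.0663), and without a filter on low counts (0.54, 0.0588). That in Dp16_2xIFNRs ended with only the 2 groups in the fit (0.54, 0.0606). The span of Btg3, an antiproliferative gene on the other strand, meets Cxadr exons. Btg3 had 10085 counts over the 18 libraries against 25513 for Cxadr, and was itself called at 1.36-fold and 1.33-fold. The strand setting of the counting is not given in the sources used here, so any reads of the overlap cannot be assigned with certainty. How many there are was not measured.

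Tiam1 was the member that differed most in size between the duplication groups. It ranged from 103 to 144 CPM in WT (median 127), 152 to 224 in Dp16 (median 180) and 135 to 185 in Dp16_2xIFNRs (median 168). Dp16 did not overlap WT, whereas Dp16_2xIFNRs replicate 6, at 135 CPM, fell within the WT range and the other 5 lay above it. The rise was 1.46-fold in Dp16 (95% interval 1.28 to 1.66, adjusted p = 0.00178) and 1.33-fold in Dp16_2xIFNRs (1.17 to 1.51, adjusted p = 0.022). The second call ended in a model without sex (log2 fold change 0.41, adjusted p = 0.0529). It also ended without WT replicate 1 (0.39, 0.061), WT replicate 2 (0.40, 0.0619) or Dp16_2xIFNRs replicate 2 (0.40, 0.0618), 3 (0.40, 0.0577) or 5 (0.41, 0.0518).

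Across all genes, 0.721% lay wholly above WT in Dp16 and 0.930% in Dp16_2xIFNRs, against 5 and 4 of the 5 segment members. Over both duplication groups, where 0.967% of all genes were called higher and 1.44% in either direction, the rises ranked Jam2 13th, Dscam 28th, Ncam2 62nd, Cxadr 64th and Tiam1 81st among 111 segment genes outside the receptor cluster. Dscam rose by 1.55-fold (95% interval 1.40 to 1.72, adjusted p = 1.26e-05) in this joint comparison and Ncam2 by 1.46-fold (1.34 to 1.59, adjusted p = 4.8e-06). Cxadr rose by 1.45-fold (1.26 to 1.68, adjusted p = 0.00449) and Tiam1 by 1.39-fold (1.25 to 1.56, adjusted p = 0.00138). Apart from Jam2, each interval held 1.5, and differences between members were not tested. The median of the other 106 was 1.47, with 60 called (56.6%) and 18 whose interval lay below 1.5.

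**Figure D2:**
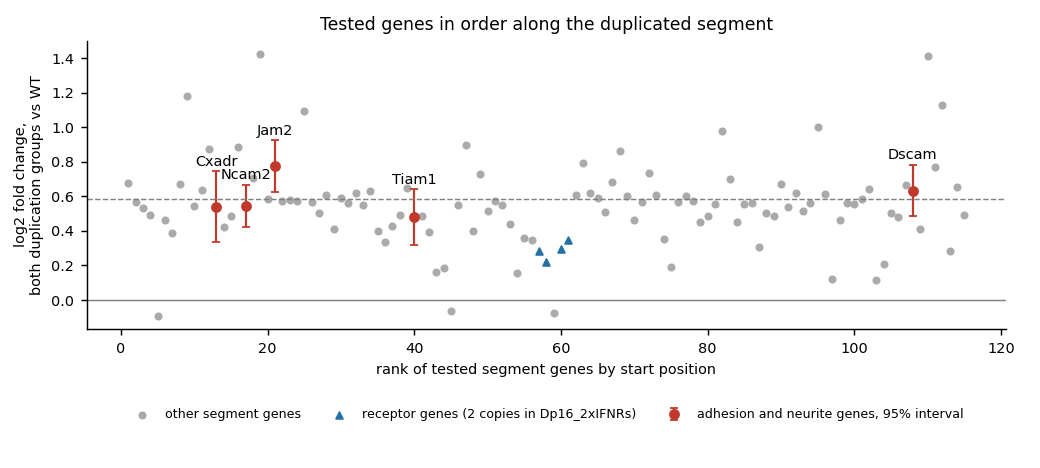
Log2 fold change of both duplication groups against WT (y axis) for the tested segment genes in order of start (x axis, rank). Red points with 95% intervals are the 5 members, blue triangles the receptor genes that are at 2 copies in Dp16_2xIFNRs, and the broken line marks 1.5-fold; only the Jam2 interval among the 5 stands above it.

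All neighbours of the 5 members lay above WT as well. Over 18 distinct genes, 2 on each side, joint folds ran from 1.32 to 2.68 and 11 were called. Beside Jam2, the mitochondrial genes Mrpl39 and Atp5j and the transcription factor gene Gabpa were at 1.5, 1.49 and 1.49 times WT, all called. Beside Dscam, the calmodulin regulator Pcp4 was called at 1.59-fold, and the protease gene Bace2 was at 1.33-fold (adjusted p = 0.297). The superoxide dismutase Sod1 and the kainate receptor gene Grik1, on either side of Tiam1, were called at 1.40-fold and 1.57-fold.

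Folds of the paralogues against WT ran from 0.983 to 1.05. Dscaml1, whose protein is known for spacing neurites in the retina, was at 66.7 ± 5.73 CPM in WT, 70.3 ± 3.29 in Dp16 and 69.1 ± 9 in Dp16_2xIFNRs (SD, n = 6), with folds of 1.05 (95% interval 0.946 to 1.18) and 1.04 (0.931 to 1.16). Its Dp16_2xIFNRs libraries were the most scattered, 4 above and 2 below the WT range. Ncam1 was at 300 ± 9.84, 297 ± 11.5 and 295 ± 15.2 CPM, a coefficient of variation of 3.28%, 3.87% and 5.14%. Its intervals, 0.934 to 1.05 and 0.927 to 1.04, lie far below 1.5. Jam3 was at 24.7 ± 2.20, 24.7 ± 1.98 and 24.4 ± 1.99 CPM (folds 0.997 and 0.988). Tiam2 was at 52.0 ± 1.42, 51.1 ± 6.49 and 51.9 ± 4.65 CPM (folds 0.983 and 0.997). Adjusted p-values of the 4 genes against WT ran from 0.784 to 0.995. The span of Tfb1m, a protein-coding gene on the other strand, meets Tiam2 exons, and its total counts were 6.22% of those of Tiam2. That of Gm48796 meets Jam3 exons, and its total counts were 2.71% of those of Jam3. How many reads fall in the overlaps was not measured.

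**Figure D3:**
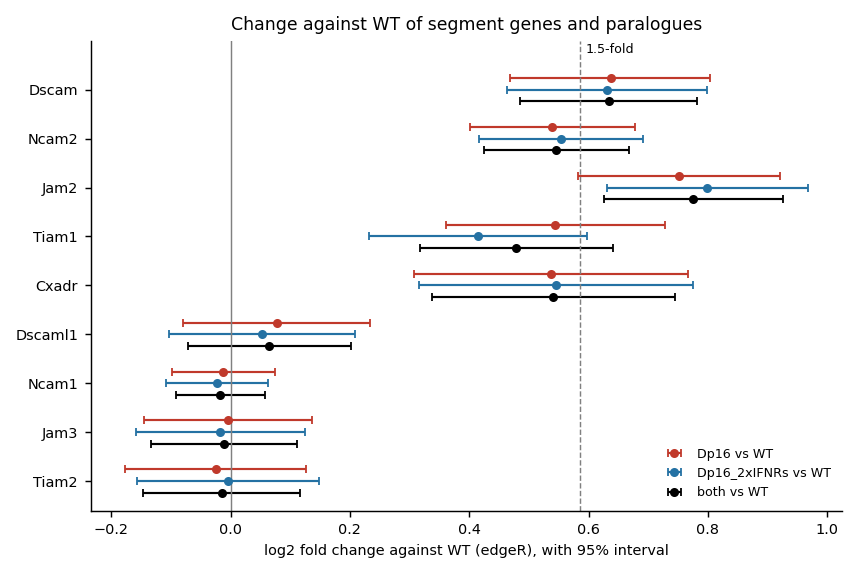
Log2 fold change against WT from edgeR (x axis) for the 9 genes (y axis), with 95% intervals, for Dp16, Dp16_2xIFNRs and both together. The solid line marks no change and the broken line 1.5-fold; the 5 segment members lie near the broken line and the 4 paralogues around the solid one.

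Levels of different genes were compared per length as RPKM (reads scaled to gene length and library total), with the single length per gene that the authors used. Ncam1 was highest in every group, at 42.2 ± 1.21, 42.1 ± 1.83 and 41.9 ± 1.77 RPKM in WT, Dp16 and Dp16_2xIFNRs, and its range met that of no other member. Tiam1 was second with 15.6 ± 2.13, 22.9 ± 3.57 and 21 ± 2.22 RPKM. Cxadr was lowest with 2.85 ± 0.518, 4.16 ± 0.429 and 4.19 ± 0.581 RPKM, apart from the rest (SD, n = 6). The genes between them were not all resolved. In WT the ranges of the 7 genes from Tiam1 to Tiam2 overlapped from one to the next, as did those of Jam2, Dscam, Ncam2 and Jam3 in Dp16 and those of Tiam1, Jam2, Ncam2, Dscam and Jam3 in Dp16_2xIFNRs, where Dscaml1 and Tiam2 overlapped too. Jam2 was 7th in WT at 9.48 ± 1.21 RPKM and 3rd in the duplication groups at 16 ± 1.52 and 16.6 ± 0.981.

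The order of these levels depends on the lengths. For Jam3 the authors' length was 1942 bases, whereas the merged exons of GENCODE M21 cover 3200 bases, and for Tiam2 the values were 6281 and 12741 bases. With the merged exon lengths, an alternative chosen after seeing the data, Jam2 was 4th in WT and 3rd and 2nd in the duplication groups. Jam3 was then 6th in WT at 7.68 ± 0.798 RPKM, below Dscam and Jam2 by mean and within the SD of Ncam2 (7.85 ± 0.739). With the authors' lengths Jam3 was 3rd and above these genes by mean. Ncam1 stayed highest and Cxadr lowest by mean, with Tiam2 next to Cxadr in Dp16 at 4.02 against 4 RPKM.

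The balance of segment gene to paralogue shifted in each of the 4 pairs. Within a library this ratio does not depend on the library size, and its fold between groups does not depend on gene length. With the authors' lengths, the RPKM ratio of Dscam to Dscaml1 was 1.00 ± 0.102 in WT, 1.47 ± 0.154 in Dp16 and 1.51 ± 0.205 in Dp16_2xIFNRs. That of Ncam2 to Ncam1 went from 0.242 ± 0.0248 to 0.355 ± 0.0419 and 0.360 ± 0.0183. Jam2 to Jam3 went from 0.757 ± 0.128 to 1.27 ± 0.130 and 1.33 ± 0.167, and Tiam1 to Tiam2 from 1.90 ± 0.272 to 2.83 ± 0.449 and 2.55 ± 0.368 (SD, n = 6). Which gene of a pair is the more abundant in WT is not settled for Jam2 and Jam3, since the WT ratio was 1.25 ± 0.211 with merged exon lengths. For Dscam and Dscaml1 it was 1.29 ± 0.132 with these lengths. Ncam2 stayed below Ncam1 and Tiam1 above Tiam2 with either length.

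The ratios were tested as differences in log2 CPM by two-sided exact permutation over 924 arrangements, whose smallest possible p is 0.00216. That p was reached for all 4 pairs in Dp16 against WT and for the Dscam, Ncam2 and Jam2 pairs in Dp16_2xIFNRs against WT (0.00371 adjusted over the 12 comparisons made). In these 7 comparisons the groups did not overlap. The Tiam1 to Tiam2 ratio rose by 1.34-fold in Dp16_2xIFNRs (95% interval 1.12 to 1.64, exact permutation p = 0.0152, adjusted 0.0227), with 5 of 6 libraries above WT. The rises in Dp16 were 1.47-fold, 1.46-fold, 1.69-fold and 1.48-fold for the Dscam, Ncam2, Jam2 and Tiam1 pairs.

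**Figure D4:**
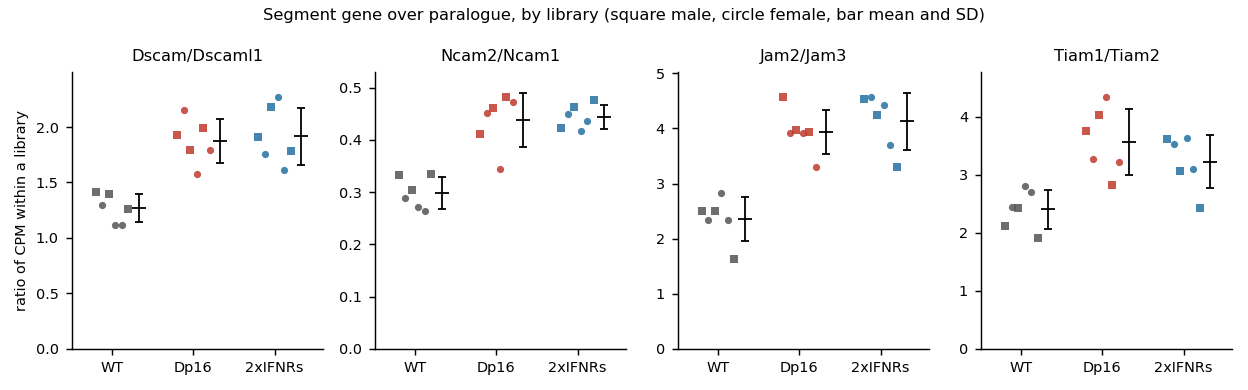
Ratio of CPM of the segment gene to that of its paralogue (y axis, from 0) in each library of the 3 groups (x axis), with mean and SD (n = 6). Duplication libraries lie above the WT range in every panel, except Dp16_2xIFNRs replicate 6 for Tiam1 to Tiam2.

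None of the 9 genes was called between Dp16_2xIFNRs and Dp16 by edgeR or by any alternative run, and none had an unadjusted p under 0.05. The comparison of Dp16_2xIFNRs with Dp16 asks what the third copy of the receptor genes goes with, since the members have equal copy numbers in both. Only 0.0214% of genes were called in it, namely the 4 receptor genes themselves. Tiam1 had the largest difference of the 9, a log2 fold change of -0.13 with a 95% interval from -0.31 to 0.05 (adjusted p = 1). For Dscam the fold was 0.996 (0.888 to 1.12), for Ncam2 1.01 (0.918 to 1.11), for Jam2 1.03 (0.921 to 1.16) and for Cxadr 1.00 (0.858 to 1.18). The lowest bound was 0.806 (Tiam1) and the highest 1.18 (Cxadr), and differences within the intervals were not detectable with these libraries. The pair ratios did not differ past the threshold either (exact permutation p from 0.301 to 0.781).

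No member was called between females and males, where 0.0641% of genes were. Tiam1 was higher in females in each group, with means of 137 against 112 CPM in WT, 184 against 178 in Dp16 and 178 against 154 in Dp16_2xIFNRs. The log2 difference was 0.18 (95% interval 0.03 to 0.33, unadjusted p = 0.0193 and adjusted p = 0.741 in edgeR). Ncam2 means were 96.5 CPM in males and 82.4 in females of WT, 135 and 124 in Dp16, and 131 and 131 in Dp16_2xIFNRs. Its log2 difference over all groups was -0.12 (unadjusted p = 0.0419, adjusted p = 0.741 in edgeR). Neither difference passed the correction. Genotype effects were called as different between the sexes for 0% of the 18717 genes by edgeR, with 577 (Dp16) and 1098 (Dp16_2xIFNRs) at an unadjusted p under 0.05. The nearest among the members was Jam2, at 52.6 CPM in WT males and 62.8 in WT females but 98.9 and 94.8 in Dp16, with a difference in log2 fold change of -0.31 (SE 0.151, unadjusted p = 0.0521, adjusted p = 1 in edgeR).

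Within genotypes some members varied together and others in opposite directions. Log2 CPM less the genotype mean was compared over 18 libraries for the 36 pairs of members, with permutation within genotypes and adjustment over the pairs, and 5 pairs passed. Dscam went against Jam3 (r = -0.71, permutation p = 0.00184, adjusted 0.034; rho = -0.65, permutation p = 0.00663). Tiam1 went with Ncam1 (r = 0.70, permutation p = 0.00283, adjusted 0.034; rho = 0.56, permutation p = 0.024). Cxadr went against Dscaml1 (r = -0.69, permutation p = 0.00275, adjusted 0.034; rho = -0.71, permutation p = 0.0022). Without the 2 libraries farthest from the median of the first gene, the values were -0.60, 0.54 and -0.67. Jam2 went with Ncam1 (r = 0.59, permutation p = 0.00663, adjusted 0.0477; rho = 0.63, permutation p = 0.00988), which dropped to 0.38 without 2 libraries. It went against Tiam2 (r = -0.55, permutation p = 0.00592, adjusted 0.0477; rho = -0.63, permutation p = 0.00686), which was -0.61 without them. All genes of a library share its dissection and depth. Sex was not taken out of the deviations, and libraries with the same identifier in their description also varied together (7 pairs, r from 0.104 to 0.428). The part of these in the relations was not tested. How often pairs of other genes would pass was not computed, so the 5 pairs are not shown to be particular to the members.

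Genes of most similar deviations among all genes tested are given for each segment member as a description. For Dscam they included Dnajc6 (r = 0.96 over 18 libraries) and Nell2 (0.96). For Ncam2 they were Dync1li1 (0.90), Atl1 (0.90) and Cntnap5b (0.90), and for Jam2 Asrgl1 (0.96), Rab31 (0.95) and Pla2g7 (0.95). Cxadr was nearest to Otud4 (0.91), 2700029L08Rik (0.90) and Dnah14 (0.89), and Tiam1 to Mlph (0.94), Cdo1 (0.92) and P2ry1 (0.92). None of these genes lies in the segment, and each was picked as among the highest in a search over all genes. Mean levels were low for 2700029L08Rik (0.291 RPKM), Dnah14 (0.0807), Mlph (0.533) and P2ry1 (0.59).

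Genes that work with the members were described by list, leaving out the members and other segment genes. Of 18 Dscam partners, which include netrin receptors and Pak and Nck proteins, none was called, with median log2 fold changes of -0.025 in Dp16 and -0.002 in Dp16_2xIFNRs, where the medians of all genes were -0.002 and 0. Pak1, a kinase downstream of Rac, was at 478 ± 55.5, 475 ± 41.5 and 502 ± 16.4 CPM in WT, Dp16 and Dp16_2xIFNRs, and the netrin receptor gene Unc5a at 133 ± 14.3, 134 ± 8.96 and 128 ± 11.4 CPM (SD, n = 6). None of 13 Ncam partners was called (medians -0.01 and -0.02). Among these the prion protein gene Prnp was at 672 ± 33.6, 657 ± 31.1 and 650 ± 31 CPM, and the growth cone gene Gap43 at 182 ± 18.9, 197 ± 21.6 and 185 ± 11.2 CPM. In the 36 other neuronal adhesion genes of the immunoglobulin family none was called (medians -0.03 and -0.01), with Thy1 at 639 ± 18.2, 648 ± 38.8 and 651 ± 36.4 and Cadm4 at 266 ± 17.2, 268 ± 11.7 and 264 ± 10.3 CPM. The 26 junctional genes gave none either (medians -0.001 and 0.033), with Cldn11 of myelin at 141 ± 8.71, 145 ± 18.5 and 154 ± 11.5 CPM and the polarity kinase gene Prkcz at 296 ± 12.6, 294 ± 16 and 293 ± 12.9 CPM. In these 4 lists 8 and 5 genes had an unadjusted p under 0.05 in the 2 comparisons, where 8.84% and 11.5% of all genes had one, and neither DESeq2 nor limma-voom called any.

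Among all lists, 13 genes lie on chromosome 16 outside the segment, at 2 copies in every group, and none was called. They were picked out after their values were seen. Lsamp was at 311 ± 24.4, 306 ± 18.6 and 301 ± 17.3 CPM in WT, Dp16 and Dp16_2xIFNRs, Robo2 at 108 ± 9.42, 102 ± 11.5 and 105 ± 7.92, and Alcam at 156 ± 9.74, 152 ± 12.3 and 153 ± 12.5 (SD, n = 6). Over the 13, folds against WT ran from 0.806 (Nectin3 in Dp16, adjusted p = 0.528) to 1.2 (Cldn1 in Dp16, adjusted p = 0.839).

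Pak6, a kinase of the Pak family, was the one called gene among 47 Rac regulators and effectors besides Tiam1 and Tiam2, and it fell. It was at 104 to 136 CPM in WT (median 116), 84.3 to 111 in Dp16 (median 101) and 85.9 to 103 in Dp16_2xIFNRs (median 95.1). The Dp16 range overlapped WT and that of Dp16_2xIFNRs lay below it. Its fold was 0.847 in Dp16 (95% interval 0.786 to 0.912, adjusted p = 0.0258) and 0.803 in Dp16_2xIFNRs (0.745 to 0.865, adjusted p = 0.00176). Of all genes, 0.112% and 0.310% were called lower, and the shares lying wholly below WT are not reported here. The call in Dp16 ended without WT replicate 2, 4 or 5 or Dp16 replicate 2, 3, 5 or 6 (log2 fold changes of -0.25 to -0.21, adjusted p of 0.0544 to 0.0793), and in a model without sex (-0.25, adjusted p = 0.224). The list medians were 0.00 and -0.01.

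Among 43 tested synaptic organizers, such as neurexins and neuroligins, 8 lay above WT in Dp16 and 12 in Dp16_2xIFNRs, with medians of -0.07 and -0.05. Over all genes, 49.3% and 50.2% lay above. No organizer was called in either comparison by edgeR, with 6 and 4 at an unadjusted p under 0.05. Clstn1, the most abundant per length, was at 1800 ± 176, 1700 ± 163 and 1720 ± 71.8 CPM (SD, n = 6), and Adgrl1 at 819 ± 47.7, 819 ± 42.4 and 788 ± 31.5 CPM. Slitrk2, named after its values were seen, was at 0.821-fold in Dp16, just outside the threshold (adjusted p = 0.0509). It was called in Dp16 with DESeq2 (adjusted p = 0.00802), RLE size factors (0.0492), no filter (0.0306), a model without sex (0.0411) or the sample identifier as a random block (0.0382), and when 1 of 5 libraries was left out (0.0239 to 0.0471; WT replicate 6, Dp16 replicate 1, 2 or 5, or Dp16_2xIFNRs replicate 3). In most runs it stayed uncalled in Dp16, namely in 8 of 13 other settings (adjusted p up to 0.134 in edgeR). The same held for 13 of 18 edgeR runs with 1 library left out (up to 0.144). It was also called by edgeR over both duplication groups at 0.837-fold (0.470% of genes were called lower there), with an adjusted p of 0.0236. That call ended without WT replicate 1, 2, 3 or 4 (log2 fold changes of -0.25 to -0.24, adjusted p of 0.0594 to 0.0775).

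Of 24 cadherins and catenins, Cdh19 was called in Dp16_2xIFNRs. It was at 10.1 to 11.9 CPM in WT (median 10.6), 7.09 to 10.4 in Dp16 (median 9.26) and 6.95 to 9.15 in Dp16_2xIFNRs (median 8.21), so that the last group lay below WT. The fold was 0.746 (95% interval 0.654 to 0.852, adjusted p = 0.0251) against 0.837 in Dp16 (adjusted p = 0.338), and the difference between the 2 duplication groups was not called (0.891-fold, 0.781 to 1.02, adjusted p = 1). The call ended without WT replicate 1 or 4 or Dp16_2xIFNRs replicate 2, 4, 5 or 6 (log2 fold changes of -0.43 to -0.38, adjusted p of 0.0502 to 0.0769). The medians of the list were -0.03 and -0.02. Of all genes, 0.310% were called lower in Dp16_2xIFNRs, and the share lying wholly below WT is not reported here.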

How the data were processed

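Cortex RNA of 18 mice was analysed, with groups, sex and age from the labels. TRIzol extracts were made into strand-specific polyA libraries, per the labels' protocols. Build GRCm38 and the tools HTSeq 0.6.1, HISAT2 2.1.0, SAMtools 1.5, FastQC 0.11.5 and bcl2fastq stand in the submitters' processing notes. The authors deposited raw, unscaled counts per gene. RPKM values deposited beside them equalled, for 31735 of 31735 genes checked, the count over library total and over 1 gene length (relative tolerance 1e-06). The strand setting of the counting is not given in the sources used here.

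The members and gene lists were chosen with earlier results of these data known. Of 55385 genes, 55144 were placed in GENCODE M21. Counts were filtered with filterByExpr (edgeR 4.0.16, minimum count 10), scaled by TMM and fitted with genotype and sex over all 18 libraries (R 4.3.3, 14 residual degrees of freedom, common biological coefficient of variation 12.2%). Quasi-likelihood F tests were adjusted by Benjamini-Hochberg over 18717 genes. Intervals are 95% and unadjusted. CPM use TMM-scaled library sizes. The scripts were tested on simulated data. Pair ratios used exact permutation of log2 CPM (prior count 2). Named were the members, the 3 genes most like each segment member (1 is not reported here), the 2 tested neighbours on either side, and from each list up to 4 called genes or else the 2 of highest RPKM. Alternatives used DESeq2 1.42.0, limma 3.58.1, other scalings, filters, covariates and blocks, log2(RPKM + 0.1) or log2(RPKM + 1), and each library left out.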

Additional observations from a re-analysis of the deposited data

How the results depend on the processing

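The 5 segment members stayed above WT in all 460 alternative values against WT, and 449 also kept their side of the threshold. The other 11, for Cxadr in Dp16 and in Dp16_2xIFNRs and Tiam1 in Dp16_2xIFNRs, are named in the report. No paralogue was called in 368 such values, which lay between -0.067 and 0.109. The number of genes called over the whole table moved more. DESeq2 called 247 in Dp16, 394 in Dp16_2xIFNRs and 517 with both groups together, where edgeR called 140, 196 and 269. The sample numbers of the titles did not pair the libraries by the rule used, which asks for r over 0.1 in every pair (18 same-numbered pairs, r from -0.181 to 0.428, median 0.178, 11 over 0.1, against a median of -0.035 and 15 of 90 for different numbers). With that number as a replicate block, 304 genes were called in Dp16_2xIFNRs and 414 with both groups together, and no call of the 9 members changed. Libraries with the same identifier in their description (7 pairs) had r from 0.104 to 0.428, and the labels do not say what it stands for. With it as a random block (consensus correlation 0.25), 152, 274 and 315 genes were called in Dp16, in Dp16_2xIFNRs and with both groups together, and no call of the members changed. Leaving out single libraries gave 102 to 147 called genes in Dp16, 121 to 270 in Dp16_2xIFNRs and 176 to 307 with both together. The counts were 121 in Dp16_2xIFNRs without its replicate 2, and 125 there and 176 with both groups together without WT replicate 2.

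Signs changed only in log2 fold changes near 0 that were not called. In Dp16 against WT, Jam3 (-0.004) was 0.002 with a filter of 1 CPM, 0.007 with RPKM and pseudocount 0.1, and 0.006 with pseudocount 1. In Dp16_2xIFNRs against WT, Tiam2 (-0.004) was 0.023 with age in the model and 0.007 and 0.006 with the 2 RPKM settings. With both groups together Jam3 (-0.011) was 0.003 and 0.002 with RPKM. In Dp16_2xIFNRs against Dp16, Dscam (-0.006) was 0.003 with either RPKM setting, Jam3 (-0.013) was 0.014 with age, and Cxadr (0.007) was -0.002 with limma-voom and -0.014 with the identifier as a random block. The cause was not tested.

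Leaving out single libraries also changed signs of such values. In Dp16 against WT the ranges were -0.032 to 0.003 for Ncam1, -0.042 to 0.034 for Jam3 and -0.067 to 0.026 for Tiam2. In Dp16_2xIFNRs against WT they were -0.042 to 0 for Ncam1, -0.049 to 0.019 for Jam3 and -0.039 to 0.029 for Tiam2. With both groups together they were -0.04 to 0.026 for Jam3 and -0.036 to 0.011 for Tiam2. In Dp16_2xIFNRs against Dp16 they were -0.043 to 0.044 for Dscam, -0.035 to 0.043 for Ncam2, -0.075 to 0.049 for Cxadr, -0.065 to 0.032 for Dscaml1, -0.03 to 0.011 for Ncam1, -0.046 to 0.025 for Jam3 and -0.03 to 0.062 for Tiam2. The pair differences between these groups ran from -0.02 to 0.08 for Dscam and -0.037 to 0.06 for Ncam2. Each member had 728 or more counts in every library.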
